A study of Mus musculus with 6 samples.

Results

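The genes described here are 10 alpha and beta tubulin genes, followed by name through every library of a depolarization time course in mouse neurons. They were taken by symbol from the 43432 genes listed: the 6 beta genes Tubb3, Tubb2a, Tubb2b, Tubb4a, Tubb5 and Tubb6, and the 4 alpha genes Tuba1a, Tuba1b, Tuba1c and Tuba4a. The rule names them and uses no measured value, but they were chosen with earlier results of these data known. All 10 had a count in every library. The study cultured cortical neurons from wild-type (WT) C57BL/6 embryos at E16.5, males and females pooled, for 7 days on dishes. In every group the cells were silenced overnight with 1 µM tetrodotoxin (TTX), which blocks sodium channels, and 100 µM DL-AP5, which blocks NMDA receptors. The next morning KCl at 55 mM, which depolarizes the membrane, was applied for 2 h or 6 h, or not at all (the 0 h group, which is silenced and not depolarized). Poly(A) RNA was sequenced from 2 libraries per group, 6 in all, described as biological duplicates; whether each came from its own dissection was not stated, so the p-values measure the spread between these libraries.

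Microtubules are hollow polymers of alpha-beta tubulin dimers, and they carry transport and give shape to axons and dendrites. Mammals make each subunit from several genes, called isotypes, whose proteins differ mainly at the C-terminal tail. Tubb3 is the isotype used as a neuronal marker, Tubb2a, Tubb2b and Tuba1a are abundant in the developing brain, and Tubb5, Tuba1b and Tuba1c are made by many cell types. Cells adjust tubulin mRNA to the amount of free tubulin: the ribosome-associated factor TTC5 recognizes the N-terminal residues of nascent tubulin, and SCAPER then brings the CCR4-NOT deadenylase to the mRNA.

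The starts of the coding sequences are shown because they encode this recognized N-terminus, and the ends because they show where near-identical genes can and cannot be told apart by reads. The sequences were read from GENCODE M21 transcripts (GRCm38), 5′ to 3′, with the first 4 codons in capitals. The Tubb3 stretch lies at chr8:123411606-123411635 on the plus strand, the Tubb2b stretch at chr13:34130204-34130233 on the minus strand and the Tubb5 stretch at chr17:35838024-35838053 on the minus strand. The Tuba1a, Tuba1b and Tuba4a stretches are each split by an intron, within chr15:98951665-98953453, chr15:98933169-98934335 and chr1:75217408-75219195, all on the minus strand.
Tubb3: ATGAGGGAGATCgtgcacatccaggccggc
Tubb2b: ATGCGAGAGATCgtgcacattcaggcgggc
Tubb5: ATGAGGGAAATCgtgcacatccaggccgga
Tuba1a: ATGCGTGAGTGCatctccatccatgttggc
Tuba1b: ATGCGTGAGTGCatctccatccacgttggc
Tuba4a: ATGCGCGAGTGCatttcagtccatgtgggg

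In all 6 beta genes the first 4 codons encode methionine, arginine, glutamate and isoleucine, and in all 4 alpha genes they encode methionine, arginine, glutamate and cysteine. The codons themselves differ between genes, as between Tubb3 and Tubb5. The alpha genes also differ at the other end, where the last sense codon is in capitals below. It encodes tyrosine in Tuba1a, Tuba1b and Tuba1c, the residue that is removed and restored in the detyrosination cycle, and glutamate in Tuba4a. The Tuba1c stretch lies at chr15:99037980-99038009 on the plus strand and the Tuba4a stretch at chr1:75215622-75215651 on the minus strand.
Tuba1c: gaaggagacgatgagggtgaggaaTATtaa
Tuba4a: tatgaggacgaggatgagggagaaGAGtag

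The last 90 coding bases of Tubb2a and Tubb2b, with the bases that differ in capitals, show how few positions separate a close pair. Tubb2a (chr13:34074468-34074557) and Tubb2b (chr13:34127471-34127560) are neighbours on the minus strand.
Tubb2a: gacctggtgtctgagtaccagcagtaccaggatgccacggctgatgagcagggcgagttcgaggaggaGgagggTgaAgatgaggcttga
Tubb2b: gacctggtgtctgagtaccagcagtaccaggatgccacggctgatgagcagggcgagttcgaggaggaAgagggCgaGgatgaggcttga

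Over the whole coding sequence Tubb2a and Tubb2b were 96.5% identical in bases and differed at 2 residues, and Tuba1a and Tuba1b were 98.3% identical and also differed at 2 residues. Tuba4a was 84.7% identical to Tuba1a. Tubb3 shared between 81.2% (with Tubb5) and 85.7% (with Tubb6) of its coding bases with the other beta genes. Of the 150-base windows of each transcript, 27.9% in Tubb2a, 20.1% in Tubb2b, 37.5% in Tuba1a, 53.0% in Tuba1b and 46.7% in Tuba1c occurred word for word in another gene, and 0% in Tubb3, Tubb4a, Tubb5 and Tubb6.

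The deposited counts reflected these shared stretches. RSEM divides a read that fits several genes among them, so an expected count that is not whole belongs to a gene with shared reads. Counts were not whole in 6 of 6 libraries for Tubb2a, Tubb2b, Tuba1a, Tuba1b, Tuba1c and Tuba4a, and whole in every library for Tubb3, Tubb4a, Tubb5 and Tubb6. Tubb2a and Tubb2b added up to a whole number in 6 of 6 libraries (within 0.01), so that no remainder was left to a gene outside the pair. Tuba1a, Tuba1b and Tuba1c summed to a whole number in 0 of 6 libraries (within 0.015), and in 6 of 6 (within 0.04) once the 5 copies Gm17383, Gm5620, Gm3756, Gm6682 and Gm14150 were added, which together held 37.7 to 65.8 expected counts per library. Each such gene is therefore given with its own value, which depends on how RSEM divided the reads, and with the sum of its group.

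By level per length the alpha message was nearly all Tuba1a. On the TPM scale, which counts transcripts after correction for length, Tuba1a stood at 18152 and 18004 in the 0 h libraries, at 15262 and 17829 after 2 h, and at 14516 and 14979 after 6 h. It made up 91.6% ± 0.20 (SD, n = 2) of the summed TPM of the 8 alpha genes at 0 h, 92.7% ± 0.24 at 2 h and 93.0% ± 0.13 at 6 h. Tubb2b led the beta genes at 4460 ± 80.1 TPM at 0 h, followed by Tubb5 at 1760.2 ± 26.2, Tubb3 at 1659 ± 28.3 and Tubb2a at 1619.5 ± 19.7. Tuba1b, at 1549 ± 36.3, came next, and then Tubb4a at 202 ± 1.3 and Tuba4a at 100.4 ± 3.2. Tubb6 (4.57 ± 0.54) and Tuba1c (3.70 ± 1.06) were the lowest, and their libraries overlapped.

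The order shifted with time. Tubb3 went from rank 4 among the 10 genes without KCl to rank 6 at both later times, and Tuba4a passed Tubb4a, with 152.8 ± 23.0 against 107 ± 10.4 TPM at 2 h and 182 ± 12.2 against 125 ± 15.2 TPM at 6 h. Tuba1b and Tubb5 overlapped at 2 h. Apart from this pair and Tubb6 with Tuba1c at 0 h, neighbours in the order did not overlap at any time.

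Within the beta message the share of Tubb3 was smaller after KCl and that of Tubb2a larger. Tubb3 made up 16.6% ± 0.17 of the summed TPM of the 8 beta genes at 0 h, 12.5% ± 0.22 at 2 h and 11.2% ± 0.64 at 6 h, and Tubb2a made up 16.3% ± 0.31, 17.8% ± 0.13 and 19.4% ± 0.06. Tubb2b was highest at 2 h (44.7% ± 0.49, 50.5% ± 0.69 and 46.8% ± 1.01). Tubb5 took 17.7% ± 0.39, 15.6% ± 0.43 and 16.9% ± 0.25. On the alpha side Tuba1b went from 7.85% ± 0.21 to 6.43% ± 0.28 and 5.80% ± 0.08, and Tuba4a from 0.509% ± 0.014 to 0.854% ± 0.037 and 1.15% ± 0.050. These shares are descriptions, with no test, and a share moves when any other isotype moves.

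**Figure D1:**
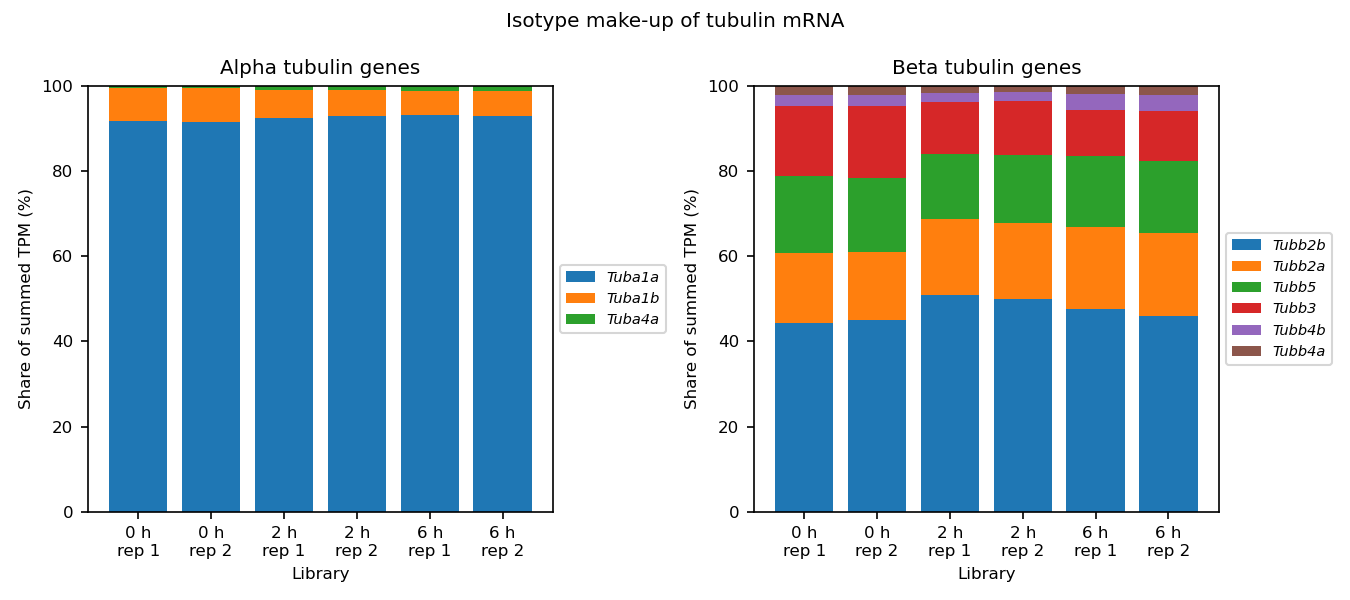
Stacked bars give the share (%) of each isotype in the summed TPM of the alpha genes (left) and of the beta genes (right), with 1 bar per library; genes under 0.1% on average are not drawn. Tuba1a fills over 90% of every alpha bar, and the Tubb3 band narrows from 16.6% at 0 h to 11.2% at 6 h.

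As a whole, the 10 genes took 2.21% and 2.29% of all counts in the 0 h libraries, 1.80% and 2.09% after 2 h of KCl, and 1.52% and 1.63% after 6 h. Their summed normalized counts, scaled by DESeq2 size factors, were 547559 and 550299 in the 0 h libraries, 502152 and 561768 after 2 h of KCl, then 441749 and 468253.5 after 6 h (-0.05 and -0.27 on the log2 scale against 0 h, with no test), so on this scale the 2 h libraries overlapped those at 0 h. The Wilson 95% intervals reach at most 0.0055 percentage points to either side and cover counting error only. Library totals ran from 25959298 to 28573067 expected counts. In bulk RNA, fewer cells of a type and less RNA per cell cannot be told apart. Markers of cell types were summed as TPM, and their part in the tubulin results, the 2 h fall of Tubb4a included, was not tested. Neuronal markers (15 genes) summed to 5280 to 5459 at 0 h, 5607 to 5977 at 2 h and 6146 to 6149.8 at 6 h, and astrocyte markers (8 genes) to 609 to 652, 582 to 585 and 471 to 486.5. Of the neuronal markers 9 passed as higher at 2 h (median log2 fold change 0.30), and 9 as higher and 1 as lower at 6 h (median 0.33). The astrocyte markers had a median log2 fold change of -0.05 at 2 h and -0.40 at 6 h, when 5 of the 8 passed as lower. Over all genes 12.3% passed as higher and 14.2% as lower at 2 h, and 23.7% and 21.7% at 6 h. Oligodendrocyte markers (8 genes) summed to 128.5 to 152, 98.9 to 116 and 124 to 134, so their 2 h libraries lay below the others. At 2 h Sox10 (log2 fold change -2.61, SE 0.33, adjusted p = 4.87e-14) was 1 of 8 that passed as lower and 0 passed as higher, against 14.2% and 12.3% of all genes, with Pdgfra at -0.23, Olig2 at 0.22 and Mog at 0.03. Microglia and vessel markers (9 genes) summed to 4.52 to 9.16, 5.14 to 5.47 and 4.66 to 5.47. Progenitor and dividing-cell markers (10 genes) summed to 420.4 to 455, 465.5 to 552 and 718.5 to 721, of which Vim alone held 209 and 230.1 at 0 h and 500.3 and 520.0 at 6 h. Of these 10 genes 3 passed as higher and 0 as lower at 2 h (median log2 fold change 0.28), against 12.3% and 14.2% of all genes. At 6 h 3 passed as higher, Vim (1.42), Nes (1.08) and Pax6 (0.51), against 23.7% of all genes. Another 2 passed as lower, Hes5 (-1.81) and Top2a (-0.44), against 21.7%. The markers named here were named after their values were seen. No marker was at 0 throughout.

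The first comparison asked which tubulin genes had changed after 2 h of depolarization. Tubb3, Tubb4a, Tubb5 and Tuba1b were lower and Tuba4a was higher, while the most abundant isotypes, Tuba1a and Tubb2b, did not pass the test. A gene passed at an adjusted p of at most 0.05 in DESeq2, and was called when its log2 fold change was also beyond 1 in either direction. Of the 10 genes 4 passed as lower, against 14.2% of all genes tested, and 1 passed as higher, against 12.3%. None of the 10 was called, against 5.94% of all genes tested called lower and 3.62% called higher: 5 had an unadjusted p under 0.05 in DESeq2 and 5 in edgeR, and in both tools the log2 fold changes stayed within 1 in either direction. The median log2 fold change was -0.22 over the 10 genes and 0.02 over all genes tested. All comparisons share groups, so they are not independent of each other.

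Tubb3 had normalized counts of 36418 and 36743 at 0 h and of 20945 and 24439 at 2 h. The groups were far apart, and the count fell by 38.0% (log2 fold change -0.69, SE 0.14, adjusted p = 4.93e-06). Tubb4a, a beta isotype of mature neurons and oligodendrocytes, had 5548 and 5422 at 0 h and 3093 and 3490.2 at 2 h. Its groups were as clearly separate, and it fell by 40.0% (log2 fold change -0.74, SE 0.13, adjusted p = 4.03e-07).

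Tubb5, a beta isotype made in most cells, had 52564 and 53341 at 0 h and 36363 and 41294 at 2 h. Its groups did not overlap, and it fell by 26.7% (log2 fold change -0.45, SE 0.12, adjusted p = 0.000823). Tuba1b had 30979 and 31556 at 0 h and 25144 and 27076 at 2 h. Its groups were also separate, with a smaller fall (log2 fold change -0.26, SE 0.10, adjusted p = 0.0268). Without 0 h replicate 1 or 2 the fold change stayed at -0.45 or -0.43 for Tubb5 (SE 0.19, adjusted p = 0.105 or 0.128) and at -0.27 or -0.24 for Tuba1b (SE 0.17, adjusted p = 0.40 or 0.471), and neither gene passed. Without 6 h replicate 1 or 2 Tuba1b stayed at -0.26 (SE 0.14, adjusted p = 0.204) and did not pass.

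Tuba4a was the exception among the 10. Its normalized count was 1781 and 1720.0 at 0 h and 2668 and 3083 at 2 h, a rise of 64.3% (log2 fold change 0.72, SE 0.13, adjusted p = 4.94e-07). Both depolarized libraries lay well above both silenced ones. Tubb3, Tubb4a and Tuba4a passed in 15 of 15 alternative fits that tested against no change.

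The major isotypes moved less at 2 h. Tuba1a had 289187.5 and 290360.0 normalized counts at 0 h and 299451 and 333688 at 2 h (log2 fold change 0.13, SE 0.10, adjusted p = 0.422). The 2 h libraries were higher on this scale and lower in TPM, and the log2 fold change was -0.04 when libraries were scaled by their totals. It passed as higher without 2 h replicate 1 (0.19, adjusted p = 0.00362) and with the correction for GC content (0.16, adjusted p = 0.0202), but not without 2 h replicate 2 (0.03, adjusted p = 0.804) or with that correction and the replicate block (0.16, adjusted p = 0.0777). Tubb2b had 101199.5 and 102257 at 0 h and 89720 and 100208 at 2 h (-0.10, SE 0.10, adjusted p = 0.566), and Tubb2a had 29709.8 and 28711 and then 24618 and 28335 (-0.14, SE 0.12, adjusted p = 0.435). For both, 2 h replicate 2 lay just under the 0 h libraries, and without it they passed, at -0.20 (adjusted p = 0.00516) and -0.26 (adjusted p = 0.000816). Without 2 h replicate 1 they stood at -0.03 (adjusted p = 0.758) and -0.05 (adjusted p = 0.616). Tubb6 (-0.18, SE 0.28) and Tuba1c (-0.32, SE 0.36), with at most 124 expected counts in a library, did not pass, and their depth leaves wide intervals of -0.73 to 0.37 and -1.02 to 0.39.

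**Figure D2:**
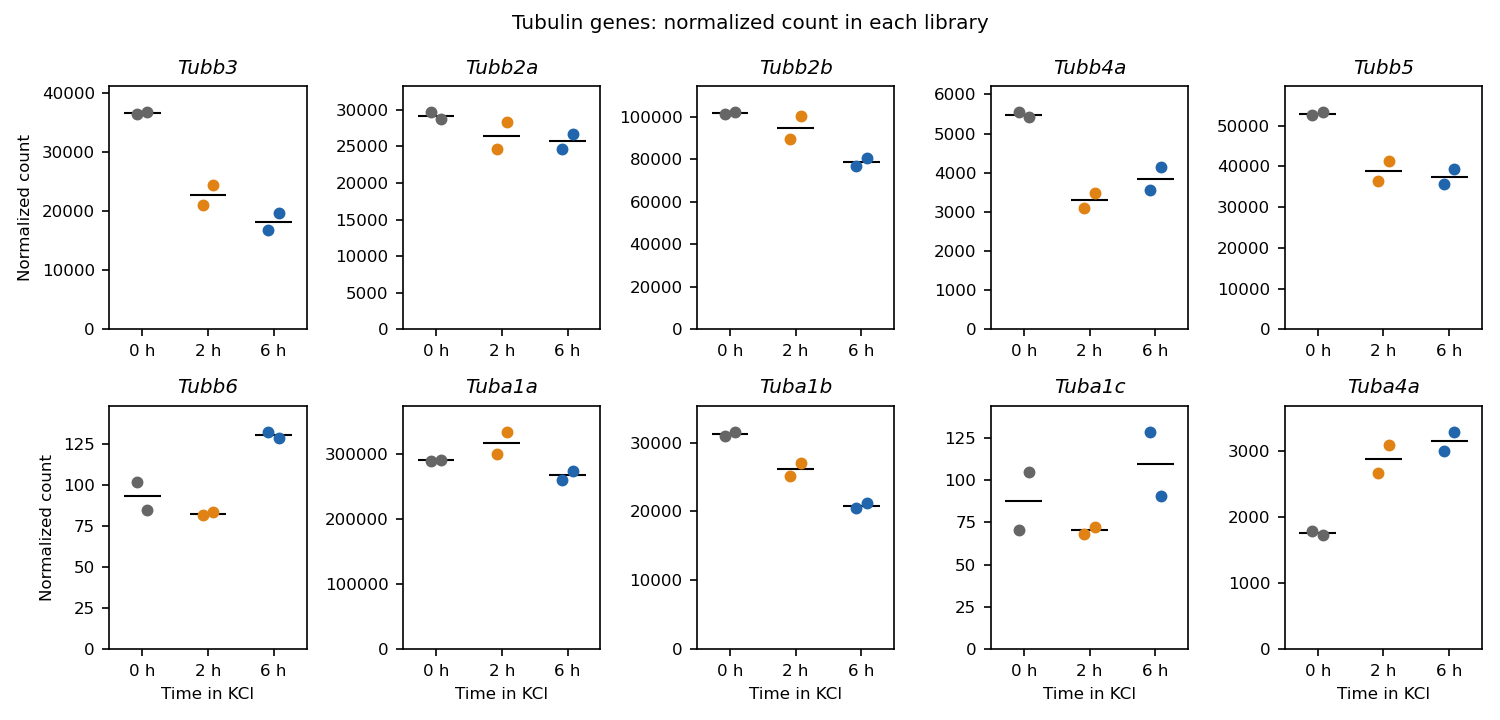
Each panel shows 1 tubulin gene, with the DESeq2-normalized count on a linear axis from 0 against the time in KCl; points are libraries (2 per group) and lines are group means. Tubb3 steps down from 36581 to 22692 and 18174, and Tuba4a steps up from 1750.4 to 2876 and 3145.

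At 6 h Tubb3 and 4 other tubulin genes were lower than at 0 h, and Tuba4a was higher. Of the 10 genes 5 passed as lower (Tubb3, Tuba1b, Tubb4a, Tubb5 and Tubb2b), against 21.7% of all genes tested, and 1 passed as higher (Tuba4a), against 23.7%. Tubb3 alone was called, and 10.2% of all genes tested were called lower and 9.1% higher. The median log2 fold change was -0.28 over the 10 genes and 0.00 over all genes tested.

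Tubb3 had 16727 and 19620.4 normalized counts at 6 h against 36418 and 36743 at 0 h. All values at 6 h lay under all values at 0 h, and the count fell by 50.3% (log2 fold change -1.01, SE 0.14, 95% interval -1.28 to -0.74, adjusted p = 1.37e-12). In TPM it went from 1659 ± 28.3 to 730.1 ± 90.5. The gene has reads of its own, since its counts were whole and none of its 150-base windows recurred elsewhere; Gm20388 spans it on the same strand but shares 0 exonic bases with it. The call sits at the 2-fold line and was kept in 13 of 17 settings: the log2 fold change was -0.90 without 6 h replicate 1 and -0.88 with a correction for GC content, and it passed the test against no change in 15 of 15 alternatives.

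Tuba1b had 20437 and 21168 normalized counts at 6 h against 30979 and 31556 at 0 h, and fell by 33.5% (log2 fold change -0.59, SE 0.10, adjusted p = 5.39e-09). Tubb5 had 35772 and 39245 against 52564 and 53341, and fell by 29.2% (log2 fold change -0.50, SE 0.12, adjusted p = 7.69e-05). Both genes were separate between the groups and passed in 15 of 15 alternatives against no change. Tubb4a had 3545 and 4139.8 against 5548 and 5422, or -0.51 as a log2 fold change (SE 0.13, adjusted p = 0.000395). Tubb2b had 76773 and 80583 against 101199.5 and 102257, and fell by 22.7% (log2 fold change -0.37, SE 0.10, adjusted p = 0.00135). The groups of these genes were separate as well. Tubb4a did not pass without 0 h replicate 1 (-0.49, adjusted p = 0.0535) or without 6 h replicate 1 (-0.41, adjusted p = 0.0786), and Tubb2b did not pass without any 1 of the 0 h or 6 h libraries (-0.41 to -0.34, adjusted p = 0.0601 to 0.127).

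Tuba4a had 3001.5 and 3288 normalized counts at 6 h against 1781 and 1720.0 at 0 h, a rise of 79.7% (log2 fold change 0.85, SE 0.13, adjusted p = 6.08e-10). In TPM the rise was from 100.4 ± 3.2 to 182 ± 12.2. Both 6 h libraries lay above both 0 h libraries on either scale.

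Tuba1a, the main alpha isotype, had 260514 and 273338 normalized counts at 6 h against 289187.5 and 290360.0 at 0 h (log2 fold change -0.12, SE 0.10, adjusted p = 0.370). Its groups did not overlap, but the difference did not pass. It passed with library totals (-0.36, adjusted p = 0.00622) and without 2 h replicate 1 or 2 (-0.12, adjusted p = 0.0218 and 0.0262). Tubb2a had 24719 and 26651 against 29709.8 and 28711 (-0.19, SE 0.12, adjusted p = 0.196), and it too passed with library totals (-0.43, adjusted p = 0.00273) and without 2 h replicate 1 or 2 (-0.19, adjusted p = 0.00161 and 0.00221). Tubb6, a beta isotype found in many non-neuronal cells, had 133 and 129 against 102 and 85.1 (0.48, SE 0.27, adjusted p = 0.141). Tuba1c had 128 and 90.4 against 70.1 and 104.5, with overlapping groups (0.32, SE 0.35, adjusted p = 0.488).

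**Figure D3:**
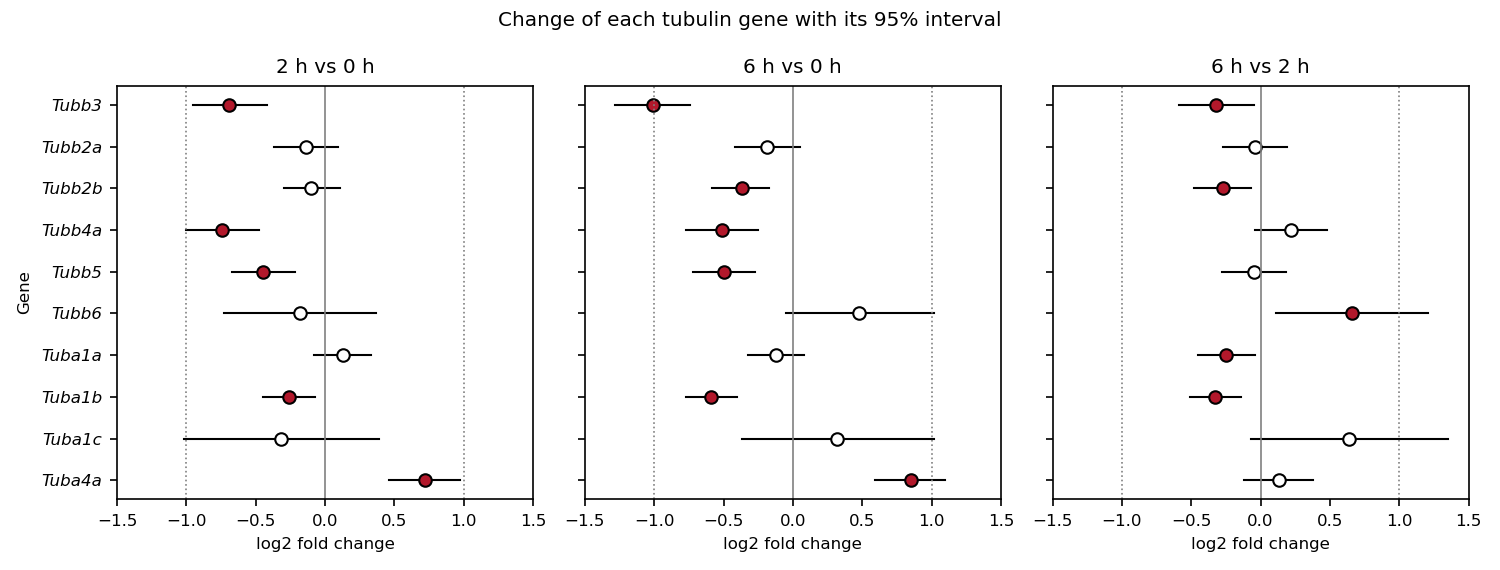
Points give the log2 fold change of each tubulin gene in the 3 comparisons, lines give the 95% interval, filled points passed the test (adjusted p at most 0.05), and dotted lines mark a 2-fold change. At 6 h vs 0 h Tubb3 lies at -1.01 and Tuba4a at 0.85, and the wide intervals belong to Tubb6 and Tuba1c.

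Between 2 h and 6 h several abundant isotypes were lower. Tuba1b, Tubb3, Tubb2b and Tuba1a passed as lower, 4 of the 10 genes against 21.2% of all genes tested, and Tubb6 passed as higher, 1 of the 10 against 24.1%. None was called in DESeq2 or in edgeR, against 8.02% of all genes tested called lower and 10.1% called higher in DESeq2, and in each tool 5 had an unadjusted p under 0.05. The median log2 fold change was -0.05 over the 10 genes and -0.01 over all genes tested.

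Tuba1b had 25144 and 27076 normalized counts after 2 h and 20437 and 21168 after 6 h (log2 fold change -0.33, SE 0.10, adjusted p = 0.00193). Tubb3 went from 20945 and 24439 to 16727 and 19620.4 (-0.32, SE 0.14, adjusted p = 0.0417). Tubb2b went from 89720 and 100208 to 76773 and 80583 (-0.27, SE 0.10, adjusted p = 0.0232). These groups were separate, each by a smaller margin than at 6 h against 0 h. Tuba1a went from 299451 and 333688 to 260514 and 273338 (-0.25, SE 0.10, adjusted p = 0.0400). Tubb6 went from 81.9 and 83.7 to 133 and 129 (0.66, SE 0.28, adjusted p = 0.0409).

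Without 6 h replicate 1 or 2 none of the 5 passed. The log2 fold changes were then -0.30 and -0.35 for Tuba1b (SE 0.17, adjusted p = 0.157 and 0.0974), -0.24 and -0.31 for Tubb2b (SE 0.17, adjusted p = 0.303 and 0.177), -0.21 and -0.28 for Tuba1a (SE 0.17, adjusted p = 0.362 and 0.219), and 0.64 and 0.68 for Tubb6 (SE 0.45, adjusted p = 0.281 and 0.254). Tubb3 moved more, to -0.21 and -0.44 (SE 0.19, adjusted p = 0.407 and 0.057), and to -0.19 without 2 h replicate 2 (SE 0.08, adjusted p = 0.0539). Without 0 h replicate 1 or 2, which are not in this comparison but share its estimate of the spread, Tubb3 (-0.33, adjusted p = 0.118), Tubb2b (-0.28, adjusted p = 0.126), Tuba1a (-0.25, adjusted p = 0.169) and Tubb6 (0.66 and 0.65, adjusted p = 0.135 and 0.130) did not pass. Tubb6 did not pass without 2 h replicate 1 or 2 either (0.65 and 0.69, adjusted p = 0.184 and 0.171), and without 2 h replicate 2 Tuba1a passed at -0.15 (adjusted p = 0.0262) and Tubb2b at -0.18 (adjusted p = 0.0106). Without independent filtering Tuba1a (adjusted p = 0.0549), Tubb3 (0.0571) and Tubb6 (0.056) did not pass. Tuba1a also lost its pass with effective length as an offset (-0.18, adjusted p = 0.170), and Tubb3 with the replicate block and GC correction together (-0.18, adjusted p = 0.0656).

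Tubb4a and Tuba4a, which had passed at 2 h against 0 h, did not pass between 2 h and 6 h. Tubb4a had 3093 and 3490.2 normalized counts at 2 h and 3545 and 4139.8 at 6 h (0.22, SE 0.13, adjusted p = 0.164). Tuba4a had 2668 and 3083 at 2 h and 3001.5 and 3288 at 6 h, with overlapping groups (0.13, SE 0.13, adjusted p = 0.438). Without 2 h replicate 2 both passed as higher at 6 h, at 0.33 (adjusted p = 0.00418) and 0.25 (adjusted p = 0.0401). Without 2 h replicate 1 they stood at 0.15 (adjusted p = 0.224) and 0.04 (adjusted p = 0.800), and without 6 h replicate 2 at 0.11 (adjusted p = 0.716) and 0.06 (adjusted p = 0.853). Tubb4a also passed with GC correction, alone (0.35, adjusted p = 0.000346) and with the replicate block (0.35, adjusted p = 0.00118). Tubb5 (-0.05, SE 0.12) and Tubb2a (-0.04, SE 0.12) overlapped between 2 h and 6 h, and Tuba1c (0.64, SE 0.36, adjusted p = 0.139) did not overlap but did not pass.

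For the genes that share reads, the sums give a value that does not depend on how the reads were divided within the group. Tuba1a, Tuba1b and Tuba1c together had 321129 ± 1261 normalized counts at 0 h, 342749.5 ± 25578 at 2 h and 287838 ± 9558 at 6 h, which is 0.09 and -0.16 on the log2 scale against 0 h, with no test. At 2 h the sum was thus above 0 h while Tuba1b alone was below it, since Tuba1a holds most of the sum. Tubb2a and Tubb2b together had 130939 ± 41.4 at 0 h, 121440.1 ± 10044.5 at 2 h and 104363.5 ± 4060.4 at 6 h (-0.11 and -0.33). Over all 8 alpha genes the summed TPM stood at -0.14 at 2 h and -0.32 at 6 h on the log2 scale against 0 h, and over all 8 beta genes at -0.45 and -0.61. Summed as normalized counts, the alpha genes stood at 0.10 and -0.15 and the beta genes at -0.28 and -0.45, so the direction of the alpha sum at 2 h differed between the scales. A transcript that the files list under Tuba1a belongs in GENCODE M21 to Gm49450, which reads through from Tuba1a into Tuba1b, so some Tuba1a counts may come from it. The effective length of Tuba1a, by which TPM is divided, was 1134 ± 15.8 bases at 0 h, 1194 ± 24.2 at 2 h and 1125 ± 28.1 at 6 h.

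Tuba4a overlaps Stk16, a serine/threonine kinase gene on the opposite strand, over 1379 exonic bases, and 45.7% of its 150-base windows lie in an exon of that gene. The expected counts of Tuba4a and Stk16 were not whole, and their sum was whole in 6 of 6 libraries (within 0.01), so reads were divided between the 2 genes across strands. Stk16 had 1170.0 and 1126 normalized counts without KCl, 1360.1 and 1473 after 2 h, and 1141 and 1051 after 6 h. It did not pass against 0 h at 2 h (log2 fold change 0.30, SE 0.12, adjusted p = 0.0551) or at 6 h (-0.07, SE 0.13, adjusted p = 0.705). Between 2 h and 6 h it passed as lower (-0.37, SE 0.13, adjusted p = 0.00888). The sum of both genes was 2898 ± 74.1 without KCl, 4292 ± 373 after 2 h and 4240.5 ± 139 after 6 h, or 0.57 and 0.55 on the log2 scale, with no test. The sum was thus higher at both times, by less than Tuba4a as listed. The effective length of Tuba4a was 1234 ± 15.4 bases without KCl, 1177 ± 42.0 after 2 h and 1074.5 ± 11.4 after 6 h, over 8 listed transcripts. That of Stk16 also fell, from 899 ± 19.2 to 831 ± 55.5 and 750 ± 2.1 bases. With effective length as an offset, the log2 fold change of Tuba4a at 6 h was 1.01 and Tuba4a was called.

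**Figure D4:**
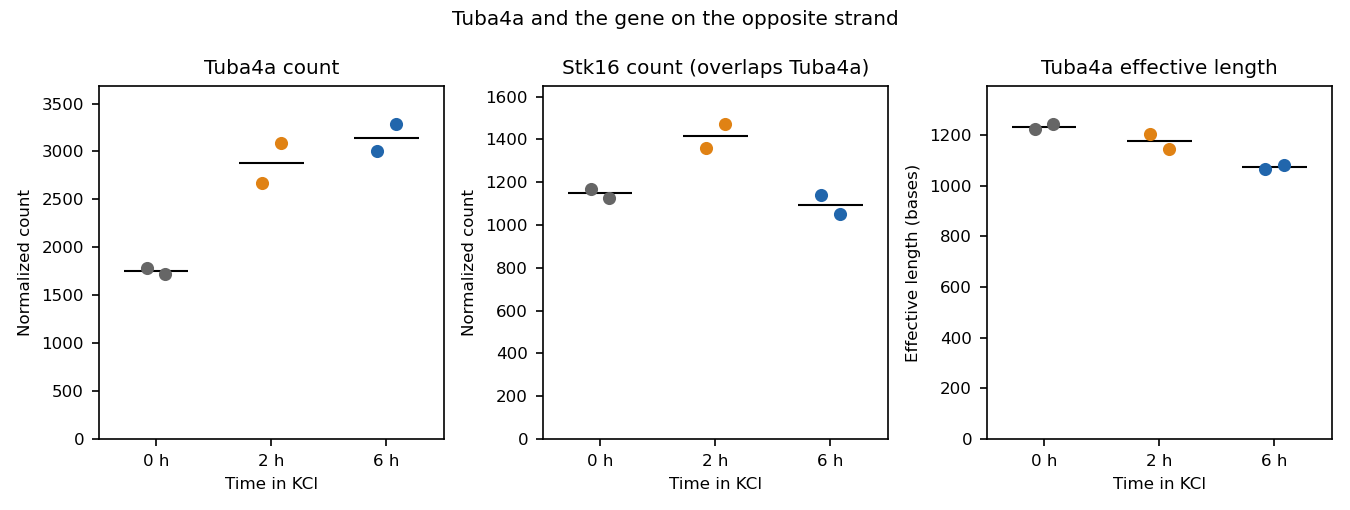
Normalized counts of Tuba4a (left) and of Stk16 on the opposite strand (middle), and the effective length of Tuba4a in bases (right), against the time in KCl; points are libraries, lines are group means and axes start at 0. Tuba4a rises from 1750.4 to 3145 while Stk16 ends at 1096 from 1148, and the effective length goes from 1234 to 1074.5 bases.

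Among the other genes of the family, Tubb4b, the remaining abundant beta isotype, had 4692 and 4859 normalized counts without KCl, 3046 and 3304 after 2 h, and 4852 and 5441 after 6 h. It was named after its values were seen. It fell at 2 h (log2 fold change -0.59, SE 0.12, adjusted p = 6.22e-06) and did not pass at 6 h against 0 h (0.11, SE 0.12, adjusted p = 0.482), with a rise from 2 h to 6 h (0.70, SE 0.12, adjusted p = 2.46e-08). Of the 11 other tubulin and gamma-tubulin complex genes tested, 5 passed as lower and 2 as higher at 6 h, with a median of -0.47; over all genes tested the shares are 21.7% and 23.7% and the median is 0.00, which holds for each list that follows. Tubg1, the gamma-tubulin that nucleates microtubules, fell (log2 fold change -1.76, SE 0.18, adjusted p = 6.54e-22). So did its counterpart Tubg2 (-0.73, SE 0.22, adjusted p = 0.00288) and Tubd1, the delta-tubulin of centrioles (-1.67, SE 0.33, adjusted p = 2.76e-06), while Tubgcp6 of the gamma-tubulin ring complex rose by 0.67 (SE 0.14, adjusted p = 7.13e-06).

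Of 9 genes of tubulin mRNA autoregulation, 2 passed as lower and 6 as higher at 6 h (median 0.52), against 21.7% and 23.7% of all genes. The list holds Ttc5, Scaper and subunits of CCR4-NOT, so its median is mainly that of CCR4-NOT. All that passed as higher were CCR4-NOT subunits, and those that passed as lower were Scaper and Ttc5. Scaper fell by 2.06 on the log2 scale (SE 0.19, adjusted p = 1.04e-24), from 2033 ± 132 normalized counts at 0 h and 2248 ± 460 at 2 h to 489 ± 72.6 at 6 h. Ttc5 fell by 0.73 (SE 0.15, adjusted p = 7.8e-06), from 1213 ± 24.4 to 732 ± 42.1. At 2 h Scaper (0.15, SE 0.19, adjusted p = 0.661) and Ttc5 (0.04, SE 0.15, adjusted p = 0.896) did not pass, and of the 9 genes 2 passed as lower and 1 as higher, against 14.2% and 12.3% of all genes. These were Cnot3 (-0.86, adjusted p = 9.14e-05), Cnot2 (-0.43, adjusted p = 0.00269) and Cnot1 (0.51, adjusted p = 1.01e-05), of which Cnot2 and Cnot3 were named after their values were seen. Cnot6 (0.85, SE 0.20, adjusted p = 9.97e-05) and Cnot1 (0.80, SE 0.10, adjusted p = 9.28e-14), a deadenylase and the scaffold of CCR4-NOT, rose at 6 h.

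Tubulin folding genes, the prefoldin, CCT and cofactor genes that fold new tubulin and join it into dimers, gave 4 of 22 passing as lower and 5 as higher at 6 h (median -0.01), against 21.7% and 23.7%. Tbcel, which destabilizes tubulin, rose by 0.86 (SE 0.11, adjusted p = 4.81e-13), and the dimer assembly cofactors Tbcd (-0.74, SE 0.12, adjusted p = 2.72e-09) and Tbce (-0.54, SE 0.14, adjusted p = 0.00028) fell; Vbp1, a prefoldin subunit, stood at 0.55 (SE 0.25, adjusted p = 0.0633). Of 22 tubulin-modifying enzymes, 4 passed as lower and 4 as higher (median -0.12), against the same 21.7% and 23.7%. The glutamylase Ttll7 (1.42, SE 0.22, adjusted p = 9.49e-10) and the glycylase Ttll3 (1.13, SE 0.28, adjusted p = 0.000206) rose, and the deglutamylase Agbl5 (-1.36, SE 0.21, adjusted p = 5.45e-10) and the glutamylase Ttll11 (-1.08, SE 0.28, adjusted p = 0.000459) fell.

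Of 39 microtubule-binding genes tested, 5 passed as lower and 19 as higher at 6 h (median 0.21), against 21.7% and 23.7% of all genes, with Map9 at 0.95 (SE 0.21, adjusted p = 3.31e-05), Map7d1 at 0.85 (SE 0.14, adjusted p = 2.3e-08), the severing enzyme gene Katna1 at 0.84 (SE 0.18, adjusted p = 2.14e-05) and Map7 at -0.89 (SE 0.25, adjusted p = 0.00143). In a list of the actin system, taken for comparison, 4 of 10 passed, all as higher (median 0.18, against 23.7% of all genes): Arpc3 (0.56), Cfl1 (0.42), Tmsb4x (0.34) and Arpc2 (0.25).

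**Figure D5:**
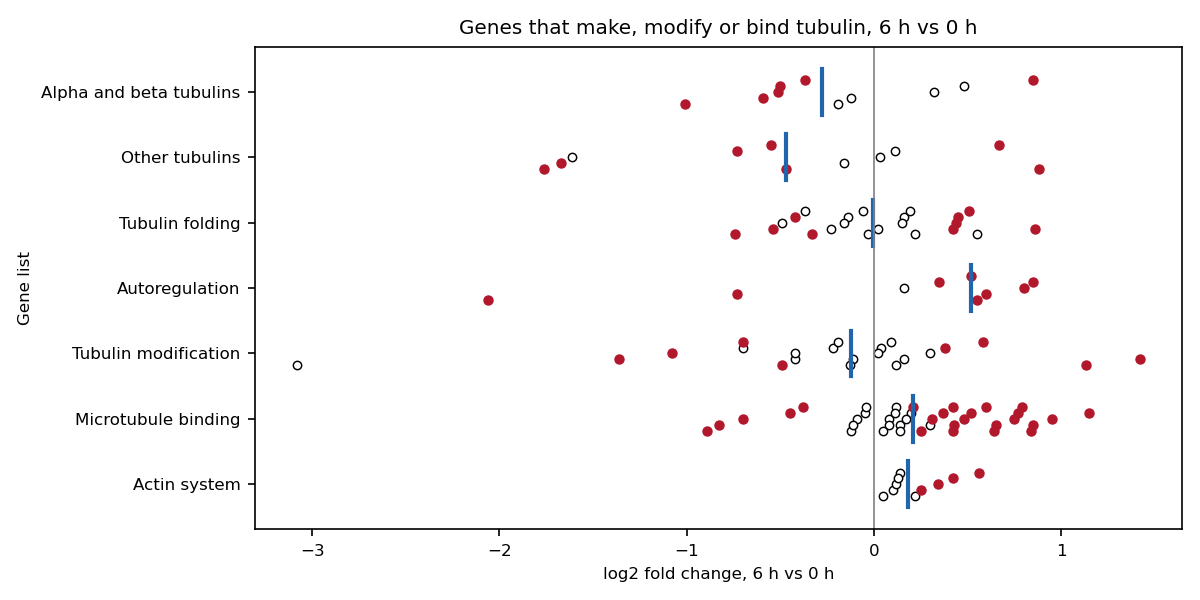
Each point is a gene, placed by its log2 fold change at 6 h vs 0 h and by gene list; filled points passed the test, open points did not, and the blue bar is the median of the list. The tubulin median lies at -0.28 and that of the microtubule-binding genes at 0.21.

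The genes whose course was most like that of Tubb3, by Euclidean distance of centred log2(normalized count + 1) over the 6 libraries among 5266 genes with a mean of at least 1000, were Acvr1b (0.141), an activin receptor gene, Dtx4 (0.195) and Pcdh1 (0.215), a protocadherin gene. Their log2 fold changes at 6 h against 0 h were -0.90, -0.89 and -0.84, beside -1.01 for Tubb3. For Tuba1a they were 6330403K07Rik (0.0451), Mras (0.0517) and Rab3b (0.0555), at -0.15, -0.11 and -0.15 beside -0.12 for Tuba1a.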

How the data were processed

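Poly(A) RNA-seq of 6 libraries was used, with group and replicate read from the labels. The authors trimmed reads with Trim Galore and quantified genes with RSEM; the submitters' processing notes name RSEM 1.3.0, Bowtie2 2.2.9 and mm10. The libraries were made with a stranded kit. The annotation release and the strand setting of RSEM were not stated in the sources used here. The deposited expected counts are not normalized and need not be whole. The deposited TPM values take length into account and add up to the same total in each library, so a gene falls in TPM when others rise. The deposited effective length, in bases, is a mean over transcripts by abundance. Of 43432 listed genes 42462 were given a symbol from GENCODE M21 (GRCm38).

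Rounded expected counts of the 22515 genes with a count went into DESeq2 1.42.0 (R 4.3.3): 1 fit of all 6 libraries with group as its term, size factors by median of ratios, Wald tests without shrinkage, and adjusted p by Benjamini-Hochberg after independent filtering. Test and thresholds (adjusted p of at most 0.05 to pass, and an absolute log2 fold change above 1 to be called) follow the methods of the study. The script was tested on simulated data. Alternatives were edgeR 4.0.16 (quasi-likelihood), other scalings, GC and length corrections, filters, a replicate block and leaving out each library. Shared windows are exact 150-base matches between transcripts. Counting intervals are Wilson 95%. The members and gene lists were chosen with earlier results of these data known. From each list at most 4 genes are named, those with the largest absolute change at 6 h vs 0 h and a mean normalized count of at least 100; Tubb4b, Cnot2, Cnot3 and the cell type markers were named after their values were seen. Tubulin genes were left out of the genes with a like course.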

Additional observations from a re-analysis of the deposited data

How the results depend on the processing

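Of 495 recomputed values, 403 counted as the same. For a tested gene this means the same direction and side of the threshold. Untested sums of genes that share reads were counted too. The causes of the other changes were not tested. Some values changed sign. Tuba1a at 2 h vs 0 h was -0.04 with library totals, the sum of Tuba1a, Tuba1b and Tuba1c was 0.09 where Tuba1b alone fell, and that sum stood against Tuba1c alone at 0.09 in place of -0.32 (2 h vs 0 h), -0.16 in place of 0.32 (6 h vs 0 h) and -0.25 in place of 0.64 (6 h vs 2 h). At 6 h vs 2 h Tubb2a was 0.05 and Tubb5 0.00 with GC correction, alone or with the replicate block. Leaving out 1 library moved Tuba1c at 2 h vs 0 h from -0.57 to 0.01, and at 6 h vs 2 h Tubb2a from -0.13 to 0.08 and Tubb5 from -0.13 to 0.06.

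Tested against a 2-fold change, 0 genes passed in either direction in any comparison, 0 were called, and 0 had an unadjusted p under 0.05. With GC correction, 2 genes (Tuba4a and Tuba1a) passed as higher at 2 h vs 0 h and 2 at 6 h vs 2 h, and 0 were called lower at 6 h vs 0 h. With effective length as an offset, 1 gene (Tuba4a) was called higher at 6 h vs 0 h. At 6 h vs 2 h, 0 genes passed as higher with TMM factors, library totals, the length offset or no independent filtering, which also left 2 lower. Leaving out 1 library gave 2 to 6 lower and 1 to 2 higher at 2 h vs 0 h, 3 to 7 lower and 0 to 1 called lower at 6 h vs 0 h, and 0 to 4 lower and 0 to 2 higher at 6 h vs 2 h.

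Replicate numbers recur in every group, but deviations of same-numbered libraries correlated at 0.281 (2 h and 0 h), -0.00226 (6 h and 0 h) and 0.152 (6 h and 2 h) over 12290 genes, so the numbers were not taken as pairs. With the replicate block 4, 5 and 4 genes passed as lower in the 3 comparisons and 1, 1 and 0 as higher, Tubb6 losing its pass at 6 h vs 2 h (0.66, adjusted p = 0.0962). With block and GC correction 2 genes passed as higher and 3 as lower at 6 h vs 2 h, where Tubb3 lost its pass (-0.18, adjusted p = 0.0656), and 0 were called lower at 6 h vs 0 h.

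Scaling by library totals shifted the median gene by -0.16 after 2 h and -0.25 after 6 h of KCl, against 0 h, and by -0.08 between them. It put the share of higher genes among those that passed at 25.6% in place of 46.4% at 2 h and at 33.2% in place of 52.2% at 6 h; GC correction put it at 59.1% at 2 h. Relative to that median, Tuba4a stood at 0.85 after 6 h and Tuba1a at 0.12 after 2 h with either scaling. This agreement was fixed in advance, since a change of size factors shifts every gene by about the same amount. The 2 libraries a group, and the low counts of Tubb6 and Tuba1c, limit what could be detected.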
